A study of Mus musculus with 8 samples.

Results

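The genes described here are 54 genes of DNA replication and mitosis, taken by symbol as a list: 28 that copy DNA or commit a cell to copying it (replication genes) and 26 that carry a cell into and through division (mitosis genes). They were followed in bone marrow derived macrophages (BMDMs), macrophages grown from marrow in culture for 7 days, from male mice 6 months old. WT mice were Mkl1+/+, Apoe-/- and KO mice were Mkl1-/-, Apoe-/-, so that all lacked Apoe, and every mouse had been infused with angiotensin II (Ang II) for 7 days. Bulk RNA-seq gave 8 libraries in 2 experiments. WT 1, WT 2, KO 5 and KO 6 belonged to experiment 1, and WT 3, WT 4, KO 7 and KO 8 to experiment 2. The knockout was global, and no untreated mice were among these libraries. The labels do not say whether each library came from a separate mouse, so the tests measure the spread between these libraries. All 54 genes were in the files, among 53735 genes, and all 54 passed the filter on low counts, as did 14418 genes in all, which were tested. The lowest count of any of the 54 in any library was 66.

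Before a cell copies its DNA, the origin recognition complex, CDC6 and CDT1 load the MCM helicase on replication origins in G1, and cyclin E with its kinase starts S phase, when the E2F factors switch on many genes of replication. Genes of mitosis are transcribed later, in G2 and M phase, largely through FOXM1 and the MuvB complex. Their products condense chromosomes, build the spindle and divide the cell. Macrophage precursors in marrow cultures divide in response to CSF1 and slow as they mature, so transcripts of both groups are found in such cultures.

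The letters that these factors are known to bind are shown first because they were spread unequally over the promoters of both groups. RefSeq windows on GRCm38.p6, from 250 bases before to 50 after the gene's start, were at hand for 44 of the 54 genes, 24 of replication and 20 of mitosis, and a gene with several windows counted when any of them held the letters. Both strands were searched for the E2F letters TTTCCCGC or TTTGGCGC, for the letters TTTGAA of the cell cycle genes homology region (CHR), to which MuvB binds, and for CCAAT, the box of the factor NF-Y. None of these motifs is part of another. E2F letters were found for 9 of the 24 replication genes (37.5%) and 0 of the 20 mitosis genes, against 3.56% of the tested genes with a window. CHR letters were found for 4 replication genes (16.7%) and 14 mitosis genes (70%), against 14.3% of the tested genes and 20.2% of all genes with a window. CCAAT was found for 62.5% of the replication and 85% of the mitosis genes, against 43.1% of the tested genes. All 14 mitosis genes with CHR letters also had CCAAT (70%), as did 12.5% of the replication genes and 5.97% of the tested genes. A match is a run of letters and no measured binding site.

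The 250 bases before the start of 2 replication genes with E2F letters and 2 mitosis genes with CHR letters are given below, 5′ to 3′ on the strand of the gene, from RefSeq on GRCm38.p6. Capitals mark the E2F letters, the CHR letters and CCAAT, or the same letters on the other strand. Mcm5 (chr8:75109259-75109508, plus strand) encodes a subunit of the replicative helicase and has E2F letters 149 bases before its start. Mcm6 (chr1:128359706-128359955, minus strand), a second subunit, has them 110 and 47 bases before. Cdc20 (chr4:118437344-118437593, minus strand), an activator of the anaphase promoting complex (APC/C), has CHR letters 18 bases before its start, between a pair of CCAAT boxes. Mki67 (chr7:135716380-135716629, minus strand), which encodes the proliferation marker Ki-67 that coats mitotic chromosomes, has CHR letters 116 and 98 bases before.
Mcm5: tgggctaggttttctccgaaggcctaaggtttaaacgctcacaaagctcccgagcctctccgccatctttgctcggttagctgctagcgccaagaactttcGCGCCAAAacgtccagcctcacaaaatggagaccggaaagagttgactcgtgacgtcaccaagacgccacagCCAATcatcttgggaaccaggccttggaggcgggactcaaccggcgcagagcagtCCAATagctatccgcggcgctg
Mcm6: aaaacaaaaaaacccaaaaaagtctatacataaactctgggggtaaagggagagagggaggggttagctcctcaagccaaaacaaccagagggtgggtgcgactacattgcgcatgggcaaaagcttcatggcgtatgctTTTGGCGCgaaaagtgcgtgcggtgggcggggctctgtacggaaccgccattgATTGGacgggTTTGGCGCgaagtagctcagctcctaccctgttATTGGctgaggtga
Cdc20: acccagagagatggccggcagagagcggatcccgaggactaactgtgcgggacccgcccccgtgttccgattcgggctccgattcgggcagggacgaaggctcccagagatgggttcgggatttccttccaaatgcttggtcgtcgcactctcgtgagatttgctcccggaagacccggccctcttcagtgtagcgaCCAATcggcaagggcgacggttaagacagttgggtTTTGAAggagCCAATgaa
Mki67: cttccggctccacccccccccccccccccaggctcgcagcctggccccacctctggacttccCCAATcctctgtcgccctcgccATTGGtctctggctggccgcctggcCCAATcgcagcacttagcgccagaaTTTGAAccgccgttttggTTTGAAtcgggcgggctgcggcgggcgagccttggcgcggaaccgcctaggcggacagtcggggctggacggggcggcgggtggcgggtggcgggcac

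Between 33977799 and 41584540 counts per library were deposited, and levels are given as CPM, counts per 1000000 counts of the library, after TMM scaling over the 8 libraries. Mkl1, the targeted gene, had 25.6 to 29.6 CPM in WT and 19.5, 20.9, 14.6 and 10.4 CPM in KO 5 to KO 8, lower in each experiment. The KO libraries kept 37% to 79.3% of the WT mean of their own experiment, the most in KO 5 and KO 6, and a count over the whole gene does not show the deleted part. All 12 macrophage markers were measurable. In KO of experiment 1, 8 were higher and 3 lower (median log2 fold change 0.78), where 27% of all genes tested were higher and 28.1% lower. In experiment 2, 3 were higher and 2 lower, where 7.52% and 8.29% of all genes tested were. KO 5 and KO 6 stood apart by their fibroblast markers. The summed level over all 9 markers was 178 and 234 CPM, against 2.18 to 12.1 CPM in the other 6 libraries. Of the 9, 7 were measurable, and all 7 were higher in KO of experiment 1. Of the markers of stem and progenitor cells, 4 of 6 were measurable. The summed level over all 6 was 20.0 and 15.4 CPM in WT 3 and WT 4. It was 11.2 and 13.1 CPM in KO 5 and KO 6, and 9.52 and 8.75 CPM in KO 7 and KO 8. In WT 1 and WT 2 it was 6.74 and 6.01 CPM. None of 7 granulocyte precursor or 6 erythroid markers passed the filter, and 1 of 7 lymphoid markers did.

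**Figure D1:**
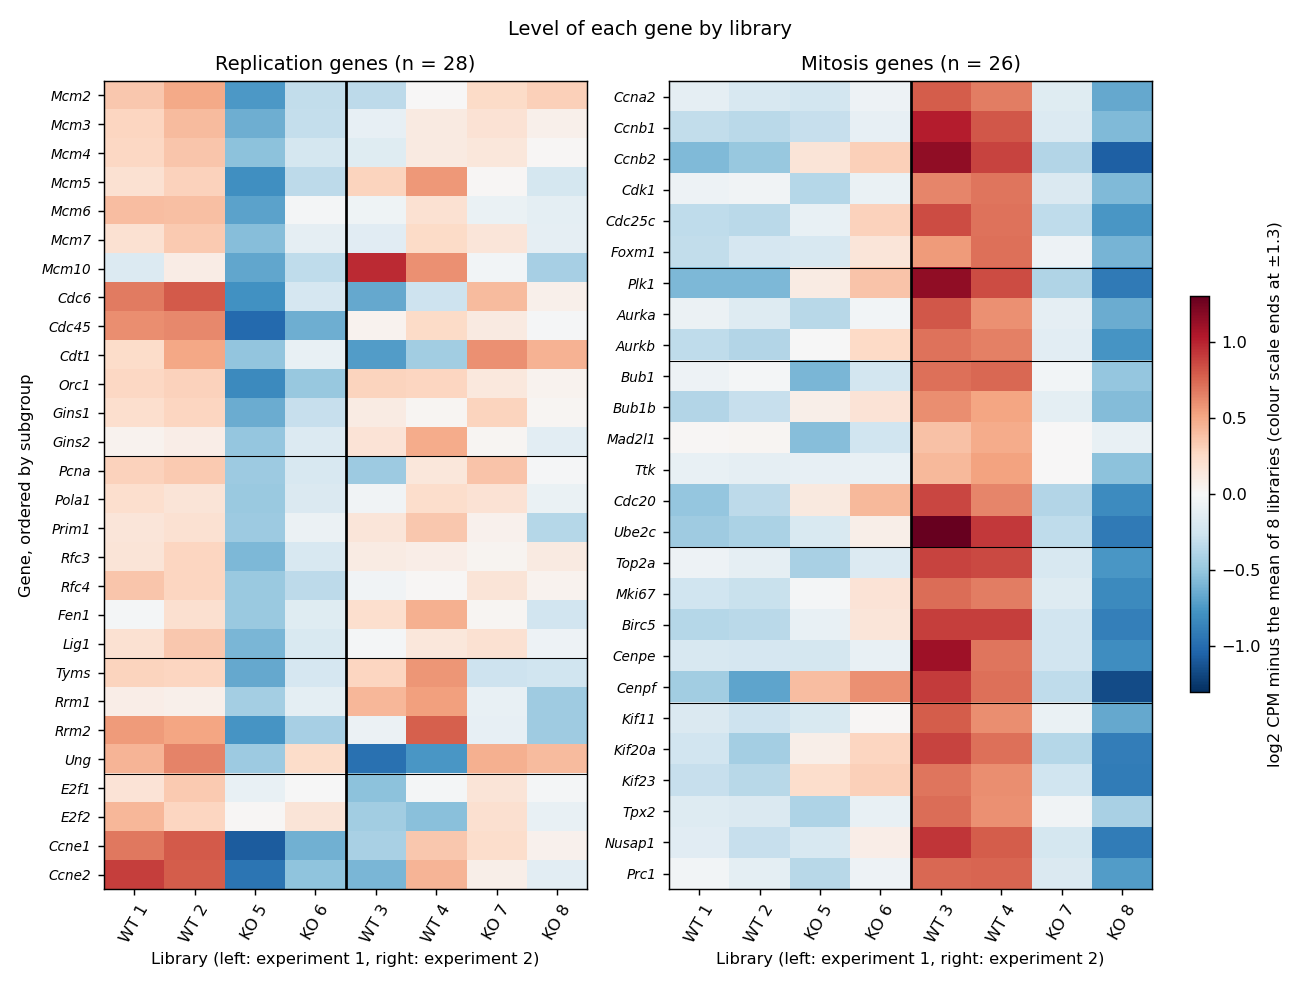
Level of each of the 54 genes in each library, as log2 CPM minus the gene's mean over 8 libraries (red higher, blue lower), with experiment 1 to the left and experiment 2 to the right of the thick line and thin lines between subgroups. Among the replication genes the bluest column is KO 5, which is below KO 6 for all 28, and among the mitosis genes WT 3 and WT 4 are the red columns, above the other 6 libraries for all 26.

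To ask which steps of the cell cycle differed between KO and WT, each experiment was tested on its own with the quasi-likelihood F test of edgeR, and p values were adjusted over all 14418 genes (Benjamini-Hochberg) with a threshold of 0.05. In experiment 1, replication genes were lower in KO. Of the 28, 26 fell and 0 rose, where 28.1% of all genes tested fell and 27% rose. All 28 had a log2 fold change below 0, with a median of -0.69 and a range of -1.59 to -0.28, beside a median of 0.01 over all genes tested, and none was higher at an unadjusted p under 0.05 or with DESeq2. The decrease was at least 2-fold for 5 genes, Cdc6, Cdc45, Rrm2, Ccne1 and Ccne2. In bulk RNA, fewer cycling cells and less of these transcripts in each cell cannot be told apart. Mitosis genes did not share this decrease. Of the 26, 12 rose and 2 fell in KO, with a median of 0.20 and a range of -0.43 to 1.05.

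In experiment 2, the lists changed places. Of the 26 mitosis genes, 25 fell in KO and 0 rose, where 8.29% of all genes tested fell and 7.52% rose. All 26 had a log2 fold change below 0, with a median of -1.19 and a range of -1.73 to -0.48, and 20 of the decreases were at least 2-fold. None of the 26 was higher at an unadjusted p under 0.05. Of the 28 replication genes, 3 fell and 2 rose, 15 lay below 0 and 13 above, and the median was -0.03, beside 0.01 over all genes tested. The number of mitosis genes past the threshold depended on single libraries. It was 1 without KO 8, 3 without WT 3, 11 without WT 4 and 25 without KO 7, while all 26 stayed below 0 in each of these fits. In experiment 1 the count of replication genes that fell was 16 without WT 2 and 28 without KO 6.

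**Figure D2:**
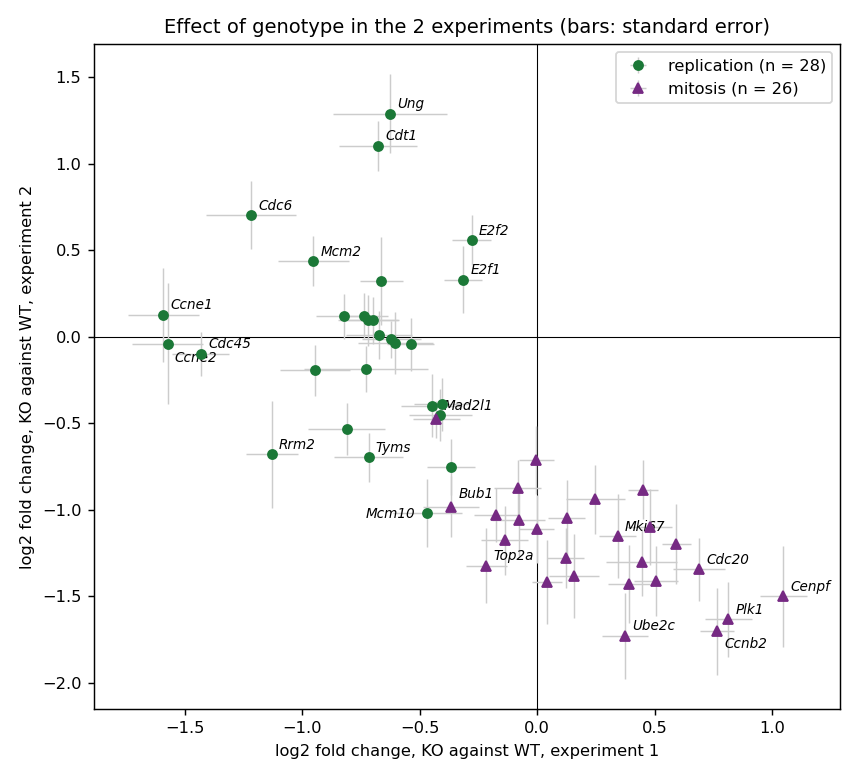
Log2 fold change of KO against WT in experiment 1 (horizontal axis) and experiment 2 (vertical axis) for the 28 replication genes (green circles) and 26 mitosis genes (purple triangles), with standard errors as bars. All replication genes lie left of 0 on the horizontal axis, and all mitosis genes lie below 0 on the vertical axis.

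Of the genes that load and fire replication origins, 12 of 13 fell in experiment 1, where 28.1% of all genes tested did. Their median log2 fold change was -0.73. Cdc45, which joins the MCM helicase to make it active, had 44.2 and 44.9 CPM in WT 1 and WT 2 and 14.4 and 18.8 CPM in KO 5 and KO 6, which is -1.43 on the log2 scale (standard error 0.12, adjusted p = 0.000122 by edgeR). In experiment 2 it had 30.1 and 34.6 CPM in WT and 31.6 and 28.9 CPM in KO, and the groups overlapped (-0.10, standard error 0.13). Cdc6, a helicase loader, stood at -1.22 on the log2 scale in the first experiment and at 0.70 in the second, the latter not past the threshold (adjusted p = 0.0713 by edgeR). Cdt1, the partner of CDC6 in loading, was the replication gene that passed in both experiments in opposite directions. It had 27.5 and 33.1 CPM in WT 1 and WT 2, 16.3 and 21.9 in KO 5 and KO 6, 14.1 and 17.0 in WT 3 and WT 4, and 35.1 and 31.8 in KO 7 and KO 8, with a log2 fold change of -0.68 (adjusted p = 0.0184) and 1.10 (adjusted p = 0.0147, both by edgeR). Cdt1 in KO 7 and KO 8 thus lay near its level in WT 1 and WT 2, and WT 3 and WT 4 held the lowest and the third lowest of its 8 values.

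The MCM helicase itself is a ring of 6 subunits, Mcm2 to Mcm7. In experiment 1, 5 of them fell, where 28.1% of all genes tested did. Their log2 fold changes were -0.95 for Mcm2, -0.82 for Mcm3, -0.70 for Mcm4, -0.81 for Mcm5 and -0.60 for Mcm7. None of these passed in experiment 2 (0.44, 0.12, 0.10, -0.53 and -0.04), where 8.29% of all genes tested fell and 7.52% rose. Mcm6, with 40.9 CPM per kilobase the most abundant of the 13 origin genes per length, had 246 and 244 CPM in WT 1 and WT 2 and 115 and 183 CPM in KO 5 and KO 6. Both KO libraries lay below both WT libraries, but they were far apart from each other, and the log2 fold change of -0.73 (standard error 0.26) had an adjusted p of 0.101 by edgeR. In experiment 2 it had 179 and 214 CPM in WT and 175 and 170.1 CPM in KO, and Mcm6 was the replication gene past the threshold in neither experiment. Mcm10, which helps to turn the loaded helicase into a moving one, fell in both experiments. Its levels were 45.9 and 55.6 CPM in WT 1 and WT 2, 32.6 and 41.2 in KO 5 and KO 6, 101.8 and 78.3 in WT 3 and WT 4, and 50.6 and 38.4 in KO 7 and KO 8, with log2 fold changes of -0.47 (adjusted p = 0.0424) and -1.02 (adjusted p = 0.0307, both by edgeR). It was highest in WT 3 and WT 4, as the mitosis genes were. Orc1, which marks origins, and Gins1 and Gins2, subunits of the active helicase, fell in experiment 1 (-0.95, -0.72 and -0.40) and did not pass in experiment 2 (-0.20, 0.09 and -0.39).

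All 7 genes of the polymerase, sliding clamp and ligase fell in experiment 1, where 28.1% of all genes tested did. None passed in experiment 2, where 8.29% of all genes tested fell and 7.52% rose. There, 1 of the 7 was lower at an unadjusted p under 0.05. Pcna, the clamp that holds polymerases on DNA, was the most abundant of the 54 per length, with 104 CPM per kilobase of exon, against 70.7 for Top2a and 66.3 for Mki67. Its level was 300.4 and 310 CPM in WT 1 and WT 2 and 176 and 212 CPM in KO 5 and KO 6, -0.66 on the log2 scale (standard error 0.09, adjusted p = 0.000758 by edgeR). In experiment 2 the WT libraries had 176 and 270.2 CPM and the KO libraries 316 and 241 CPM, with overlapping groups. Rfc4, a subunit of the clamp loader, had 17.4 and 16.5 CPM in WT 1 and WT 2, 9.74 and 10.7 in KO 5 and KO 6, 13.2 and 13.7 in WT 3 and WT 4, and 15.2 and 14.0 in KO 7 and KO 8. Fen1, the nuclease that trims Okazaki fragments, had the smallest decrease of these 7 in experiment 1 (-0.41, adjusted p = 0.0473 by edgeR). Its levels were 78.1 and 91.8 CPM in WT 1 and WT 2, 57.2 and 71.5 in KO 5 and KO 6, 92.8 and 109.9 in WT 3 and WT 4, and 81.1 and 67.0 in KO 7 and KO 8, and its log2 fold change in experiment 2 was -0.45 (adjusted p = 0.102 by edgeR). Pola1 and Prim1, of the polymerase that lays primers, Rfc3, of the clamp loader, and Lig1, the ligase that joins fragments, had -0.54, -0.45, -0.62 and -0.67 in experiment 1 and -0.04, -0.40, -0.02 and 0.01 in experiment 2.

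The 3 enzymes that supply nucleotides fell in experiment 1, where 28.1% of all genes tested did. Rrm1 and Tyms also passed in experiment 2, where 8.29% of all genes tested fell. Rrm2, the regulated subunit of ribonucleotide reductase, fell by 1.13 in experiment 1, from 121 and 118 CPM in WT 1 and WT 2 to 48.4 and 61.2 CPM in KO 5 and KO 6 (adjusted p = 0.000385 by edgeR). In experiment 2 its WT libraries were far apart, at 78.0 and 141 CPM, above 76.7 and 59.9 CPM in KO (-0.68, adjusted p = 0.195 by edgeR). Rrm1, the large subunit, fell in both experiments, from 230.0 and 227 to 159 and 198 CPM in experiment 1 (-0.37) and from 293 and 314 to 203 and 158 CPM in experiment 2 (-0.75), a call kept in 0 of 4 fits with 1 library left out. Tyms, the thymidylate synthase, fell in each, with log2 fold changes of -0.72 and -0.70. It had 30.9 and 30.6 CPM in WT 1 and WT 2, 15.9 and 21.8 in KO 5 and KO 6, 30.6 and 37.6 in WT 3 and WT 4, and 21.0 and 21.1 in KO 7 and KO 8, so that the 4 KO libraries were its 4 lowest. Ung, a glycosylase that removes uracil from DNA, had the lowest level per length of all 54, 0.698 CPM per kilobase. It had 4.82 and 5.52 CPM in WT 1 and WT 2, 2.54 and 4.17 in KO 5 and KO 6, 1.81 and 2.10 in WT 3 and WT 4, and 4.86 and 4.70 in KO 7 and KO 8. Its log2 fold change was -0.63 (adjusted p = 0.0607 by edgeR) in experiment 1, and it rose by 1.29 (adjusted p = 0.0250) in experiment 2, a call kept in 0 of 4 such fits.

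All 4 regulators of the step from G1 to S phase fell in experiment 1, where 28.1% of all genes tested did. The cyclins E, which activate CDK2 at the start of S phase, had the largest decreases of experiment 1 among the 54, -1.59 for Ccne1 (adjusted p = 0.000219) and -1.57 for Ccne2 (adjusted p = 0.000634, both by edgeR). Ccne1 had 29.6 and 32.0 CPM in WT 1 and WT 2 and 8.66 and 11.9 CPM in KO 5 and KO 6, and Ccne2 had 89.3 and 82.5 against 24.7 and 33.4 CPM. In experiment 2 both had 1 low and 1 high WT library. Ccne1 was 13.8 CPM in WT 3 and 23.5 in WT 4 beside 21.5 and 19.1 in KO, and Ccne2 was 31.6 and 65.2 CPM beside 50.5 and 43.6, so the KO libraries lay between the WT libraries. E2f1 and E2f2, activators of S phase genes, fell less in experiment 1 (-0.31 and -0.28). E2f2 had 47.3 and 42.4 CPM in WT 1 and WT 2, 35.4 and 39.2 in KO 5 and KO 6, 25.7 and 24.1 in WT 3 and WT 4, and 40.5 and 32.8 in KO 7 and KO 8, with a log2 fold change in experiment 2 of 0.56 (adjusted p = 0.0572 by edgeR).

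**Figure D3:**
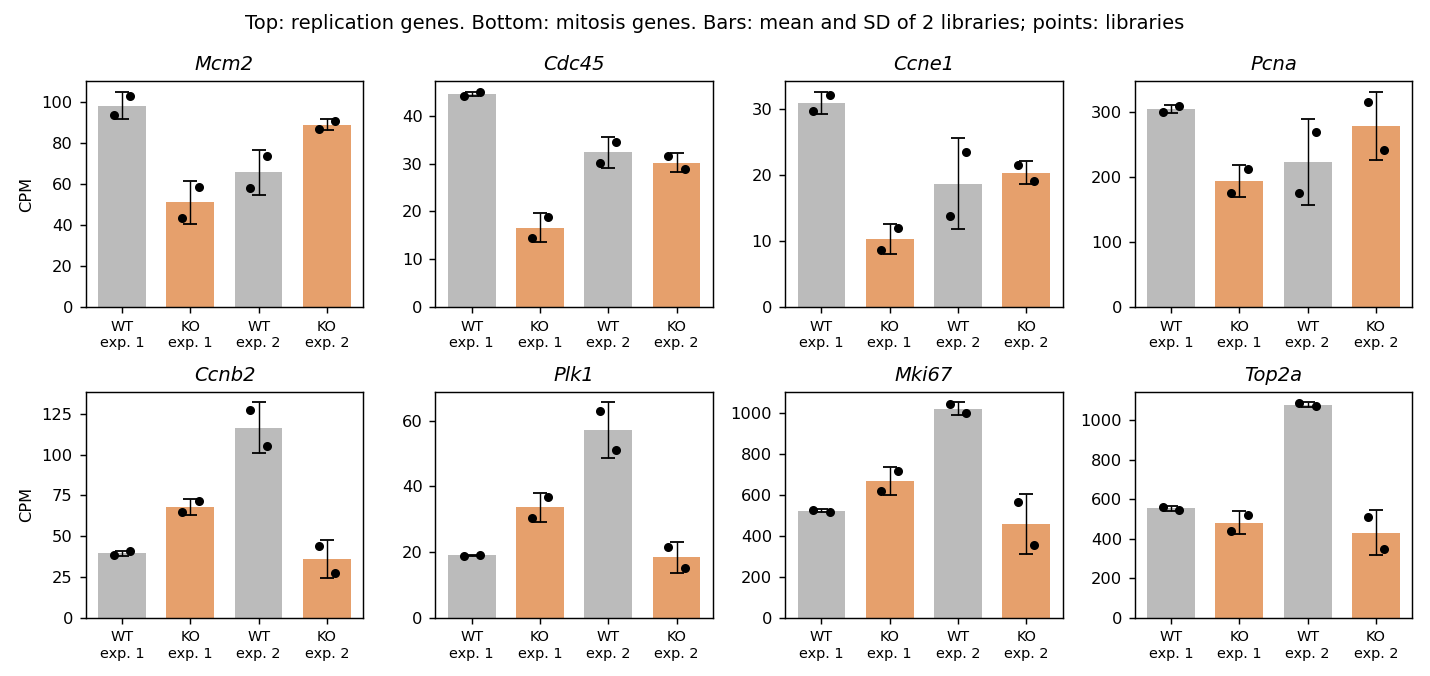
CPM of 4 replication genes (top) and 4 mitosis genes (bottom) in WT (grey) and KO (orange) of each experiment, with bars for the mean and SD of 2 libraries and a point for each library. Cdc45 and Ccne1 are lowest in KO of experiment 1, and Ccnb2, Plk1, Mki67 and Top2a are highest in WT of experiment 2.

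Genes of mitotic entry all fell in experiment 2, 6 of 6, where 8.29% of all genes tested did. In experiment 1, 2 of them rose (33.3%), near the 27% of all genes tested that rose. Ccnb2, a cyclin of the mitotic kinase CDK1, had 38.6 and 40.7 CPM in WT 1 and WT 2 and 64.6 and 71.3 CPM in KO 5 and KO 6, 0.77 on the log2 scale (standard error 0.07, adjusted p = 6.82e-05 by edgeR). In experiment 2 it had 127 and 106 CPM in WT and 44.0 and 27.6 CPM in KO, -1.70 on the same scale (standard error 0.25, adjusted p = 0.0205 by edgeR). KO 7 and KO 8 were thus near WT 1 and WT 2, and WT 3 and WT 4 were the 2 highest. Ccna2, the cyclin of S phase and G2, had 130 and 122 CPM in WT 1 and WT 2, 119 and 134 in KO 5 and KO 6, 243 and 223 in WT 3 and WT 4, and 127 and 88.8 in KO 7 and KO 8. It did not pass in experiment 1 (-0.00, standard error 0.07) and fell by 1.11 in experiment 2. Ccnb1, the main mitotic cyclin, likewise had 34.4 and 33.6 CPM in WT 1 and WT 2 beside 34.8 and 39.7 CPM in KO 5 and KO 6, and fell from 87.1 and 74.8 CPM to 37.9 and 28.7 CPM in experiment 2 (-1.28, adjusted p = 0.0152 by edgeR). Cdk1, its kinase, had log2 fold changes of -0.17 and -1.03, and Foxm1, which activates late cell cycle genes, 0.25 and -0.94, the first of each not past the threshold. Cdc25c, a phosphatase that activates CDK1, rose by 0.45 in experiment 1 and fell by 1.31 in experiment 2.

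The 3 mitotic kinases fell in experiment 2, where 8.29% of all genes tested did. Plk1, which drives spindle assembly and the exit from G2, had 18.9 and 19.0 CPM in WT 1 and WT 2 and 30.5 and 36.7 CPM in KO 5 and KO 6, and rose by 0.81 (standard error 0.10, adjusted p = 0.000276 by edgeR). It fell by 1.63 in experiment 2, from 63.1 and 51.0 CPM to 21.7 and 15.1 CPM. Aurkb, the kinase of the chromosomal passenger complex, rose by 0.48 and fell by 1.10. Aurka, the kinase of the spindle poles, was not past the threshold in experiment 1 (-0.08, with 40.9 and 38.6 CPM in WT 1 and WT 2 and 33.6 and 42.3 in KO 5 and KO 6) and fell from 75.7 and 65.5 CPM to 40.0 and 27.6 CPM in experiment 2 (-1.06).

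Genes of the spindle checkpoint and the APC/C were the most mixed of the mitosis genes in experiment 1. Of these 6, 3 rose (50%) and 2 fell (33.3%), beside 27% and 28.1% of all genes tested. Bub1b, which holds the APC/C inactive, had 65.3 and 69.1 CPM in WT 1 and WT 2 and 89.5 and 95.7 CPM in KO 5 and KO 6 (0.45, adjusted p = 0.000548 by edgeR), and 129 and 121 CPM in WT 3 and WT 4 against 77.7 and 57.4 CPM in KO 7 and KO 8 (-0.88). Cdc20, whose promoter is printed above, had 23.0 and 25.7 CPM in WT 1 and WT 2, 35.6 and 43.5 in KO 5 and KO 6, 59.4 and 50.7 in WT 3 and WT 4, and 24.9 and 18.4 in KO 7 and KO 8. It rose by 0.69 in experiment 1 and fell by 1.34 in experiment 2. Ube2c, the ubiquitin-conjugating enzyme of the APC/C, had the largest decrease of experiment 2 among the 54 (-1.73) and rose by 0.38 in experiment 1.

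Bub1 and Mad2l1 were the mitosis genes that fell in both experiments. Bub1, a checkpoint kinase at the kinetochore, had 79.2 and 81.3 CPM in WT 1 and WT 2, 55.0 and 70.4 in KO 5 and KO 6, 137 and 140 in WT 3 and WT 4, and 81.0 and 58.7 in KO 7 and KO 8 (-0.37, adjusted p = 0.0441, and -0.98, adjusted p = 0.0252, by edgeR). Mad2l1, which binds CDC20 and keeps the APC/C inactive, had 67.2 and 67.4 CPM in WT 1 and WT 2, 45.2 and 55.6 in KO 5 and KO 6, 86.3 and 93.0 in WT 3 and WT 4, and 66.5 and 62.2 in KO 7 and KO 8, and its 4 KO values were below its 4 WT values. Its log2 fold changes were -0.43 and -0.48. Ttk, the kinase that starts checkpoint signalling, was past the threshold in neither experiment, with 23.3, 23.1, 23.2 and 23.4 CPM in the 4 libraries of experiment 1 and 33.4 and 35.9 CPM in WT against 25.1 and 17.2 CPM in KO of experiment 2 (-0.71, adjusted p = 0.0696 by edgeR).

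All 5 genes of chromosome structure and the kinetochore fell in experiment 2, where 8.29% of all genes tested did. In experiment 1, 3 of the 5 rose, beside 27% of all genes tested. Mki67, whose promoter is also printed above, had 527 and 517 CPM in WT 1 and WT 2 and 620.1 and 716 CPM in KO 5 and KO 6 (0.34, adjusted p = 0.00732 by edgeR), and 1041 and 999 CPM in WT 3 and WT 4 against 562 and 355 CPM in KO 7 and KO 8 (-1.15, adjusted p = 0.0371 by edgeR). Cenpf, a kinetochore protein, was the 1 gene of the 54 that rose by at least 2-fold in experiment 1, from 67.7 and 57.5 CPM to 122 and 139 CPM (1.05), and it fell from 174 and 151 CPM to 73.3 and 41.3 CPM in experiment 2 (-1.50). Birc5, the passenger complex subunit survivin, had 37.0 and 37.7 CPM in WT 1 and WT 2, 45.0 and 53.7 in KO 5 and KO 6, 89.5 and 89.4 in WT 3 and WT 4, and 40.5 and 25.9 in KO 7 and KO 8. It rose by 0.39 and fell by 1.43. Top2a, the topoisomerase that untangles sister chromatids, was not past the threshold in experiment 1 (-0.22, adjusted p = 0.0709 by edgeR) and fell by 1.32 in experiment 2. Cenpe, a kinetochore motor, had 0.04 and -1.42.

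Genes of the spindle and of cytokinesis fell in experiment 2, 6 of 6, where 8.29% of all genes tested did. Kif20a and Kif23, motors of the central spindle, rose in experiment 1. They made up 33.3% of the 6, near the 27% of all genes tested that rose. Kif23 had 62.9 and 60.3 CPM in WT 1 and WT 2, 91.3 and 96.2 in KO 5 and KO 6, 126 and 118 in WT 3 and WT 4, and 65.0 and 41.3 in KO 7 and KO 8 (0.59, adjusted p = 0.000101, and -1.20, adjusted p = 0.0318, by edgeR). Kif20a had 74.8 and 65.4 CPM in WT 1 and WT 2, 93.5 and 107 in KO 5 and KO 6, 163 and 146 in WT 3 and WT 4, and 68.8 and 47.5 in KO 7 and KO 8, with 0.51 and -1.41. Prc1, which bundles the microtubules of the midzone, had 136 and 127 CPM in WT 1 and WT 2, 108 and 133 in KO 5 and KO 6, 233 and 234 in WT 3 and WT 4, and 122 and 84.2 in KO 7 and KO 8. The groups of experiment 1 overlapped for Prc1 (-0.14). Kif11, Tpx2 and Nusap1, of spindle assembly, were not past the threshold in experiment 1 (0.13, -0.08 and 0.16) and fell in experiment 2 (-1.05, -0.88 and -1.38).

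The effect of genotype was compared between the experiments in a fit of all 8 libraries. Among replication genes 16 had a more positive effect in experiment 2 and 0 a more negative one, where 21% and 20.6% of all genes tested did. None of the 28 was more negative at an unadjusted p under 0.05. The median difference of their log2 fold changes was 0.70. Among mitosis genes, 24 had a more negative effect in experiment 2 and 0 a more positive one, with a median difference of -1.44. The exceptions were Bub1 (-0.63, adjusted p = 0.0656) and Mad2l1 (-0.06, adjusted p = 0.771, both by edgeR). In each experiment taken alone, 12 mitosis genes rose in experiment 1 and fell in experiment 2, as did 3.23% of all genes tested, and Cdt1 fell and then rose, as did 3.11%. Mcm10, Rrm1, Tyms, Bub1 and Mad2l1 fell in both, as did 2.25% of all genes tested. With 1 library left out in turn, their calls in experiment 2 were kept in 1 of 4 fits for Mcm10, Tyms and Bub1 and in 0 of 4 for Rrm1 and Mad2l1. Their calls in experiment 1 were kept in 2 of 4 for Mcm10, Rrm1 and Bub1 and in 4 of 4 for Tyms and Mad2l1, and those of Cdt1 in 3 of 4 in experiment 1 and 2 of 4 in experiment 2. When both experiments were joined with the experiment as an additive term, Mcm5 and Tyms of the replication genes and Mad2l1 of the mitosis genes fell, and 0 of the 54 rose, also at an unadjusted p under 0.05, where 3.41% of all genes tested fell and 3.72% rose. Their adjusted p values by edgeR were 0.0339, 0.0197 and 0.0264. With 1 library left out they were called in 1, 3 and 2 of 8 fits, and 0 of the 54 were called without the experiment term.

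By library, the mean log2 CPM of the replication genes was 5.68 and 5.75 in WT 1 and WT 2, 4.77 and 5.14 in KO 5 and KO 6, 5.27 and 5.55 in WT 3 and WT 4, and 5.51 and 5.31 in KO 7 and KO 8. That of the mitosis genes was 5.93 and 5.91, 6.04 and 6.28, 7.00 and 6.89, and 5.99 and 5.46 in the same order. KO 5 and KO 6 were thus the lowest libraries in replication genes, and WT 3 and WT 4 the highest in mitosis genes. Mitosis genes exceeded replication genes by 0.26 and 0.16 in WT 1 and WT 2 and by 0.48 and 0.15 in KO 7 and KO 8, but by 1.27 and 1.14 in KO 5 and KO 6 and by 1.73 and 1.34 in WT 3 and WT 4. This balance therefore did not follow genotype across the experiments. For all 26 mitosis genes WT 3 and WT 4 were both above the other 6 libraries, as for 4 of 28 replication genes and 19% of all genes tested. For 12 of 28 replication genes KO 5 and KO 6 were both below the other 6, as for 1 of 26 mitosis genes and 21.4% of all genes tested. The libraries of a group also differed: KO 5 was below KO 6 for all 54 genes, and KO 8 was below KO 7 for 25 of 28 replication genes and all 26 mitosis genes. The fibroblast markers were high in the same KO 5 and KO 6, and the summed stem and progenitor markers were highest in WT 3 and WT 4. Their part in these results was not tested.

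**Figure D4:**
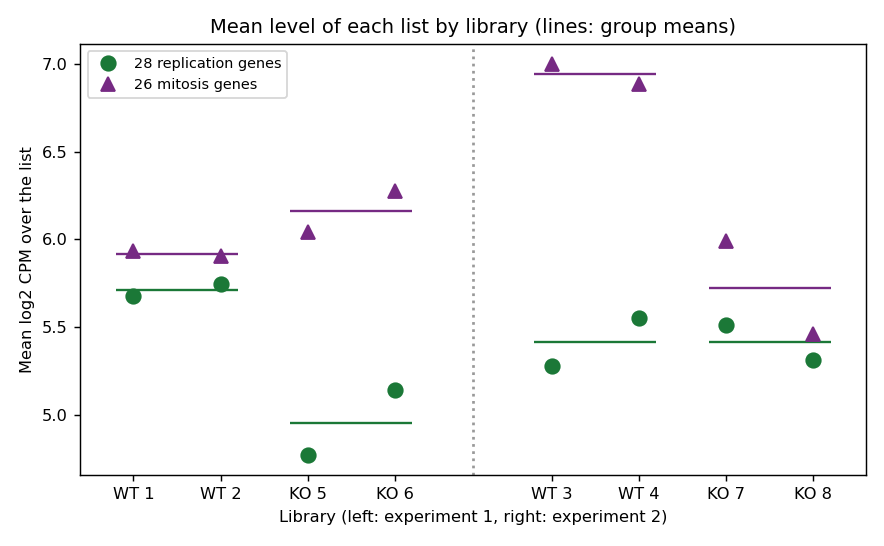
Mean log2 CPM of the 28 replication genes (green circles) and 26 mitosis genes (purple triangles) in each library, with lines at the group means. The green circles are lowest in KO 5 and KO 6 (4.77 and 5.14), and the purple triangles are highest in WT 3 and WT 4 (7.00 and 6.89).

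Values were also set side by side for promoters with and without the letters named above. In experiment 1 the median log2 fold change was -0.68 for the 9 replication genes with E2F letters and -0.67 for the 15 without. In experiment 2 it was -1.19 for the 14 mitosis genes with CHR letters and -1.33 for the 6 without. In experiment 1 it was 0.36 for the same 14, of which 8 rose and 0 fell, and 0.08 for the 6, of which 1 rose and 2 fell. These are descriptions, and the differences were not tested.

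Other genes of the same processes were listed beside the 54. Of 40 other replication genes, 24 fell and 0 rose in experiment 1, and 2 fell and 1 rose in experiment 2, with medians of -0.44 and -0.18. Of all genes tested, 28.1% fell and 27% rose in experiment 1, and 8.29% fell and 7.52% rose in experiment 2. The list of other replication genes thus had 60% that fell and 0% that rose in the first. With 5% and 2.5% it lay under the shares of all genes in the second. None was higher at an unadjusted p under 0.05 in experiment 1. Orc2 and Orc6, subunits of the origin recognition complex, fell in experiment 1 (-0.98 and -0.90). In experiment 2 Orc5, a further subunit, rose by 0.73, and Asf1b, a histone chaperone, fell by 0.81. Of 52 measurable other mitosis genes, 12 fell and 14 rose in experiment 1, and 37 fell and 0 rose in experiment 2, with medians of -0.07 and -0.97. Its 23.1% that fell and 26.9% that rose in experiment 1 were near the shares of all genes, and 71.2% fell in experiment 2. None was higher at an unadjusted p under 0.05 in experiment 2. Cenpa, the histone of the centromere, rose by 1.69 in experiment 1, and Aspm, a spindle pole protein, by 1.48. Both fell in experiment 2 (-1.58 and -1.53). Tacc3 and Shcbp1, of the spindle and the midbody, had the smallest p values of experiment 2 in this list and fell (-1.15 and -1.17).

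**Figure D5:**
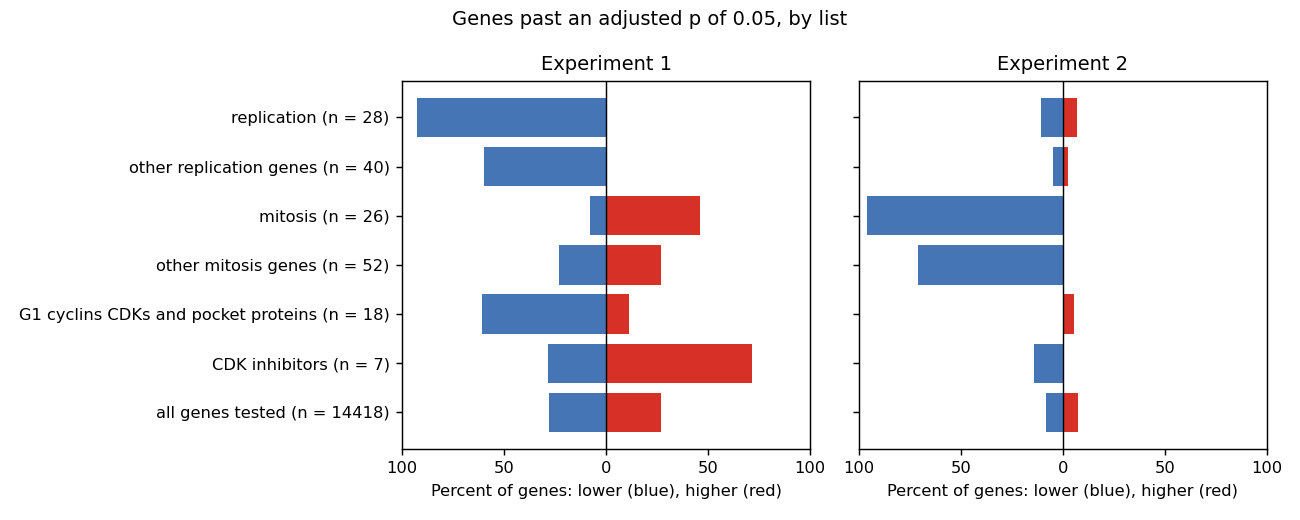
Share of each list past an adjusted p of 0.05 in experiment 1 (left) and experiment 2 (right), in percent of its tested genes, drawn to the left for genes lower in KO (blue) and to the right for genes higher in KO (red). In experiment 1 the blue bars are longest for replication genes (92.9%), and in experiment 2 for mitosis genes (96.2%), against 28.1% and 8.29% of all genes tested.

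Upstream of both lists, the G1 cyclins, their kinases and the pocket proteins numbered 18, of which 11 fell and 2 rose in experiment 1 and 0 fell and 1 rose in experiment 2. Of all genes tested, 28.1% fell and 27% rose in experiment 1, and 8.29% and 7.52% in experiment 2. E2f3, an activator of S phase genes, and Cdc25a, a phosphatase that activates CDK2, fell in experiment 1 (-0.84 and -0.75). Rb1, the retinoblastoma protein that restrains E2F, rose by 0.52 in experiment 2, where E2f3 came next by p and did not pass (0.50, adjusted p = 0.0651 by edgeR). At an unadjusted p under 0.05, 3 of the 18 were lower and 4 higher in experiment 2. The 7 CDK inhibitors all changed in experiment 1, 2 that fell (28.6%) and 5 that rose (71.4%). Cdkn1a, which encodes p21, had 173 and 178 CPM in WT 1 and WT 2 and 90.5 and 97.5 CPM in KO 5 and KO 6, and fell by 0.91 (adjusted p = 1.26e-05 by edgeR), while in experiment 2 it had 221 and 186 CPM in WT and 142 and 113 CPM in KO (-0.68, adjusted p = 0.0506 by edgeR). The 4 KO libraries thus held the lowest values of this inhibitor. Cdkn1b, which encodes p27, rose by 0.83 in experiment 1 and had 0.34 in experiment 2 (adjusted p = 0.106 by edgeR). Cdkn2c, which encodes p18, rose by 0.54 in experiment 1, from 45.1 and 45.6 to 61.2 and 71.5 CPM, and fell by 1.03 in experiment 2, from 78.5 and 84.8 to 49.0 and 31.0 CPM, which were the directions of 12 mitosis genes and of 3.23% of all genes tested. Of the other 4, Cdkn1c fell (-0.39) and Cdkn2a, Cdkn2b and Cdkn2d rose (1.86, 0.90 and 0.33) in experiment 1, and none passed in experiment 2.

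Scaling moved counts but no direction past the threshold. With upper-quartile scaling in experiment 1, the median of all genes moved from 0.01 to 0.11 on the log2 scale, the share of lower genes among those called from 51% to 40.2%, and the replication genes that fell from 26 to 20. For both experiments joined, that share moved from 47.8% to 32.7%.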

How the data were processed

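The 8 libraries were stranded mRNA libraries of BMDMs, grouped by the genotype and experiment in their labels. The authors deposited whole-number raw counts for each gene symbol. A second deposited table of each experiment, counts scaled by a size factor of that experiment, was not used, because the factors are not shared between experiments. The submitters' processing notes name GRCm38, STAR 2.7.0f, Subread 1.6.4 with featureCounts, and DESeq2 1.22.1. The annotation and the strand setting of the counting are not given in the sources used here. Depth was 33977799 to 41584540 counts per library. Of pseudogenes, Pcna-ps2 held 161 counts in all against 76610 on Pcna, Ccnb2-ps 25 against 19477 on Ccnb2, and Rrm2-ps1 1 against 26531 on Rrm2. No pair of replicates was a duplicate. Chi-square per gene between their counts was 15.6 for WT and 12.3 for KO in experiment 1. It was 66 for WT and 80.2 for KO in experiment 2.

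The 54 genes, the other lists and the tests were chosen with earlier results of these data known. Values by library are given, in each of 9 subgroups, for the gene with the highest mean CPM and the genes with the smallest p in each experiment, and for genes past the threshold in both experiments with the same direction or in neither. The remaining members were named with fold changes to account for all 54. Mcm2 and Top2a in the bar plots and the 4 printed promoters were chosen after their values or matches were seen. From each other cell cycle list, the 2 genes with the smallest p in each experiment were named, and any CDK inhibitor or gene of macrophage growth. Of the cell type markers only counts and levels are given, and for the macrophage markers a median log2 fold change.

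Genes passing edgeR's filterByExpr by genotype (14418) were tested with edgeR 4.0.16 in R 4.3.3, with TMM scaling, a robust quasi-likelihood fit and F test, and Benjamini-Hochberg adjustment at 0.05. Each experiment was fitted alone (4 libraries, 2 residual degrees of freedom). The difference between experiments was tested in a fit of 4 groups over 8 libraries, and a further fit had genotype with experiment as an additive term. Standard errors were taken as the absolute log2 fold change over the root of the F statistic. Log2 CPM used a prior count of 2. Levels per length used merged exons of GENCODE M21 on GRCm38. Promoter letters were searched on both strands of RefSeq windows. The scripts were tested on simulated data. Alternatives were DESeq2 1.42.0, limma-voom (limma 3.58.1), upper-quartile scaling, no filter beyond 1 count in total, a stricter threshold of 0.01, a minimum 2-fold change, all 8 libraries in 1 fit, no experiment term, and each library left out. Figures were drawn with matplotlib 3.10.9.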

Additional observations from a re-analysis of the deposited data

Results flagged for a closer look

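Of the 54 genes, 16 of replication and 24 of mitosis responded to genotype differently in experiment 1 and experiment 2, by the test of the difference itself (edgeR, adjusted p under 0.05 over all genes tested), which is why they are listed here. Each value is the log2 fold change of experiment 2 minus that of experiment 1. Among genes that load and fire origins the difference was 1.38 for Mcm2, 0.93 for Mcm3, 0.78 for Mcm4, 1.91 for Cdc6, 1.32 for Cdc45, 1.77 for Cdt1, 0.74 for Orc1 and 0.80 for Gins1. In the group of polymerase, clamp and ligase it was 0.97 for Pcna, 0.59 for Rfc3, 0.85 for Rfc4 and 0.67 for Lig1. For uracil repair it was 1.91 for Ung. For the regulators of S phase entry it was 0.83 for E2f2, 1.71 for Ccne1 and 1.52 for Ccne2. Every one of these 16 was positive, and the differences of the mitosis genes were all negative. Genes of mitotic entry had differences of -1.12 for Ccna2, -1.41 for Ccnb1, -2.48 for Ccnb2, -0.87 for Cdk1, -1.76 for Cdc25c and -1.20 for Foxm1. The mitotic kinases had -2.46 for Plk1, -1.0 for Aurka and -1.59 for Aurkb. Genes of the spindle checkpoint and the APC/C had -1.35 for Bub1b, -0.72 for Ttk, -2.04 for Cdc20 and -2.11 for Ube2c. Chromosome and kinetochore genes had -1.12 for Top2a, -1.51 for Mki67, -1.84 for Birc5, -1.47 for Cenpe and -2.56 for Cenpf. Spindle and cytokinesis genes had -1.18 for Kif11, -1.93 for Kif20a, -1.80 for Kif23, -0.80 for Tpx2, -1.55 for Nusap1 and -1.05 for Prc1. The experiments also differ in the libraries, so a genotype effect that differs and a difference between the cultures of the 2 experiments cannot be told apart.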

How the results depend on the processing

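No paired analysis was possible because the libraries are numbered 1 to 8 and the groups share no number. No member past the threshold changed its direction under any alternative run. In experiment 1 the 26 replication genes that fell became 15 at an adjusted p under 0.01 and 5 at 2-fold, and 16 to 28 with a library left out. The 2 mitosis genes that fell became 5 without the filter, 1 with upper-quartile scaling, at an adjusted p under 0.01 or with all 8 libraries in 1 fit, 0 at 2-fold, and 1 to 7 with a library left out. The 12 that rose became 7 with all 8 libraries in 1 fit, 1 at 2-fold, and 10 to 15 with a library left out. In experiment 2 the 25 mitosis genes that fell became 0 at an adjusted p under 0.01 and 1 to 25 with a library left out, and were 26 with DESeq2 or with all 8 libraries in 1 fit. The 3 replication genes that fell became 0 at an adjusted p under 0.01, 1 at 2-fold and 0 to 2 with a library left out, and the 2 that rose became 4 with DESeq2, without the filter or with all 8 libraries in 1 fit, 0 at an adjusted p under 0.01 and 0 to 1 with a library left out. Of the differences between experiments, the 16 of replication genes became 9 at an adjusted p under 0.01 and 9 to 16 with a library left out, the 24 of mitosis genes were 20 to 25, and 1 replication gene (0 to 1 with a library left out) was more negative in experiment 2 without the filter. Over both experiments, the 2 replication genes and the 1 mitosis gene became 9 and 4 with DESeq2, 5 and 2 without the filter, and 0 and 0 at an adjusted p under 0.01 or without the experiment term. With a library left out they were 0 to 3 and 0 to 1.

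Over all genes, experiment 2 gave 1195 lower and 1084 higher genes, 2418 and 2481 with all 8 libraries in 1 fit, 136 and 98 at an adjusted p under 0.01, and 110 and 122 without KO 8. Over both experiments there were 491 and 536, 1256 and 1236 with DESeq2, and 1 and 3 without the experiment term. At 2-fold experiment 1 gave 838 and 1393 of its 4056 and 3892. The cause of these shifts was not tested. With 2 libraries a group, an experiment alone has 2 residual degrees of freedom, and a group left with 1 library was assumed to vary like the other.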

Other observations

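Genes that set the growth of macrophages were 13 in a list, of which 12 were measurable. In experiment 1, 4 fell and 6 rose in KO (33.3% and 50%, beside 28.1% and 27% of all genes tested), and in experiment 2, 4 fell and 2 rose (33.3% and 16.7%, beside 8.29% and 7.52%). Csf1, the growth factor of macrophages, had 5.41 and 5.99 CPM in WT 1 and WT 2 and 44.1 and 62.4 CPM in KO 5 and KO 6, but 96.2 and 97.8 CPM in WT 3 and WT 4 and 4.29 and 3.09 CPM in KO 7 and KO 8, with log2 fold changes of 3.22 and -4.71. Csf1r, its receptor, rose by 0.82 in experiment 1 and fell by 1.28 in experiment 2, and so did Btg1, an antiproliferative gene (0.67 and -0.98). Of all genes tested, 3.23% rose in the first experiment and fell in the second.

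Myc, which drives growth and entry into the cycle, had 29.9 and 25.6 CPM in WT 1 and WT 2 and 6.79 and 8.22 CPM in KO 5 and KO 6, a log2 fold change of -1.90, and 21.0 and 21.6 CPM against 17.9 and 20.9 CPM in experiment 2 (-0.13). Klf4, a factor of monocyte maturation, fell by 1.08 in experiment 1 and rose by 3.01 in experiment 2, from 3.81 and 4.28 CPM to 28.3 and 36.7 CPM. Whether any of these genes acted on the cell cycle genes was not tested.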
